A study of Caenorhabditis elegans with 12 samples.

Results

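The pals and chil genes of Caenorhabditis elegans were followed in RNA-Seq libraries of whole worms at day 1 of adulthood. Members were all genes of the count table whose symbol is pals or chil followed by a hyphen and a number, and 66 of 46748 genes matched, 38 pals and 28 chil. The libraries came from 3 genotypes with 4 independent biological replicates each, 12 in all. In crh-1(n3315), which the labels call a CREB null, the gene of the CREB transcription factor is mutated. In circ-crh-1(syb385), a CRISPR/Cas9 deletion in a crh-1 intron removes pairing sequence needed to form the circular RNA circ-crh-1. Wild type was N2. Each mutant is represented by 1 allele. The syb385 strain was outcrossed to N2, and the outcrossing of n3315 was not given in the sources used here. All worms were synchronized by hypochlorite treatment and fed E. coli OP50. The study's methods move L4 larvae onto FUdR as their default and the sample labels name none, so it is not known here whether these worms received it.

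Both families belong to the responses of the worm to infection, by pathogens that enter its cells or that infect through its cuticle. PALS proteins, named for a short ALS2CR12 signature, form an expanded nematode family. Some of their genes, pals-5 and pals-14 among them, are induced in the intestine by microsporidia and Orsay virus as part of the intracellular pathogen response (IPR). PALS-22 represses this response and PALS-25, its antagonist, is needed to activate it. PALS-17 is a further repressor, and PALS-16 and PALS-20 act as activators opposed to it. The chil genes encode chitinase-like proteins, and chil-27 and chil-28 are induced in the epidermis when the worm detects oomycetes.

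Total counts per library ranged from 20296003 to 25369267 for crh-1(n3315), from 18172086 to 21404887 for circ-crh-1(syb385) and from 16348586 to 22174508 for wild type. The crh-1 gene itself had 951 to 1130 counts under the label crh-1(n3315), 789 to 958 in circ-crh-1(syb385) and 745 to 1050 in wild type. No drop in crh-1 marked the label crh-1(n3315), which the counts therefore could not check, and n3315 below means the libraries that carry it. The deletion in circ-crh-1(syb385) lies in an intron, so the count of crh-1 gave no check of it either. Limits drawn from counts cover counting error only.

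Most members were weakly expressed. Of the 66, 37 passed the filter on low counts and were tested, 21 pals and 16 chil. The other 29 had at most 99 counts over all 12 libraries, and pals-10, chil-15 and chil-17 had none. A count was present in all 12 libraries for 29 members. Position was shared by most of them: 55 lay in 8 clusters whose neighbours were within 50 kb, and 11 lay alone. The largest clusters were 14 pals genes over 62.3 kb of chromosome I (WBcel235, 13083321 to 13145594), 13 chil genes over 42.9 kb of chromosome II (9436686 to 9479536) and 9 chil genes over 31.1 kb further along chromosome II (9843380 to 9874521). Chromosome III carried a cluster of 4 pals genes with pals-22 and pals-25 (120492 to 137965) and a cluster of 6 with pals-17 and pals-16 (1376945 to 1406265). Exons of 13 members overlapped an exon of another gene. How reads that map to several copies were counted was not given in the sources used here, and members of each family are related in sequence, so reads could be shared between close copies and the values of single members carry that uncertainty.

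Levels between genes were compared as CPM per kb of exon, where CPM is TMM-normalized counts scaled to the library total. The most abundant member over the 12 libraries was chil-10 (20.5 CPM per kb), on chromosome X from 957886 to 960567. It was followed by pals-24 (13 CPM per kb) and its neighbour pals-23 (9.38 CPM per kb), then by chil-22, chil-13 and pals-34 (4.76, 4.46 and 4.38 CPM per kb). By summed CPM, chil-10 alone made up 46.0% of the chil family, and pals-24 with pals-23 made up 41.3% of the pals family.

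Summed over each family, the level was lower in both mutants. The 38 pals genes together had 37.4 to 55.2 CPM per n3315 library, 37.3 to 45.6 CPM per circ-crh-1(syb385) library and 70.1 to 82.7 CPM per wild-type library. The 28 chil genes had 43.4 to 47.0 CPM in n3315, 47.6 to 52.9 CPM in circ-crh-1(syb385) and 62.3 to 86.0 CPM in wild type. For both families, all mutant libraries lay below all wild-type libraries. This was also so without pals-24, where the pals sum was 28.4 to 44.5 CPM in n3315, 29.2 to 35 CPM in circ-crh-1(syb385) and 52.3 to 63.8 CPM in wild type. Without chil-10, the chil sum was 18.7 to 23.6 CPM in n3315, 24.5 to 27.6 CPM in circ-crh-1(syb385) and 33.8 to 56.7 CPM in wild type, and wild type replicate 1 was the highest. No p-value is given for these sums, since the members were chosen with earlier results of these data known.

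**Figure D1:**
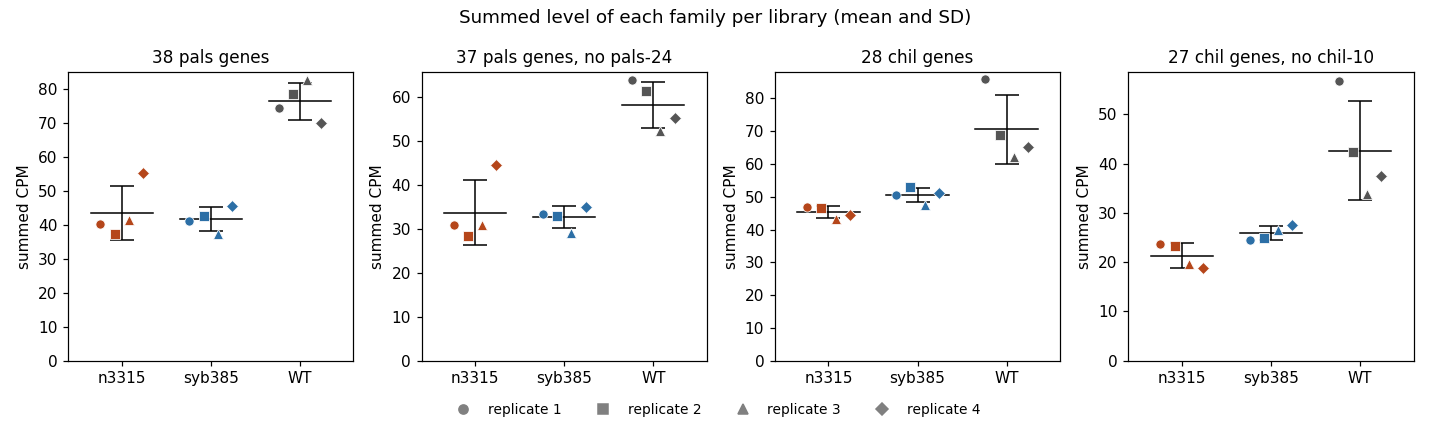
Summed TMM-normalized CPM (vertical axes) of each family in every library of crh-1(n3315), circ-crh-1(syb385) and wild type, with and without the most abundant member. Marker shapes are replicates and bars are the mean and SD over 4 libraries. All wild-type points lie above all mutant points, with 70.1 CPM as the lowest wild-type pals sum and 55.2 CPM as the highest mutant one.

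Each mutant was compared with wild type by edgeR's quasi-likelihood test. Genes were called at a Benjamini-Hochberg adjusted p under 0.05, adjusted over every tested gene, and a change of at least 2-fold. In n3315, 11 of the 37 tested members were lower (29.7%, against 11.2% of all 14511 tested genes) and 0 were higher (against 4.17% of all). DESeq2 also called 0 higher. At an unadjusted p under 0.05, 16 members differed from wild type in n3315, 1 of them higher. Of all 14511 tested genes, 2947 were higher and 3148 lower in n3315 at an adjusted p under 0.05 without a fold threshold. These counts of all genes use an adjusted p, and those at an unadjusted p are not given here. Taken without direction, the count of 16 is therefore not shown to set the members apart from all genes. By direction, only 1 of the 16 was higher, while all genes were more evenly divided. In circ-crh-1(syb385), 7 members were lower (18.9%, against 4.48% of all tested genes) and 1 was higher (against 2.24% of all). The log2 fold change was below 0 for 33 of 37 members in n3315 (median -0.72, all tested genes -0.04) and for 31 of 37 in circ-crh-1(syb385) (median -0.83, all tested genes -0.05). The median in n3315 was the same with chil-18, which had no count there, set at its lower bound. All mutant libraries lay below all wild-type libraries for 10 members in n3315 (27%, against 18.2% of all tested genes) and for 7 in circ-crh-1(syb385) (18.9%, against 8.95%). The comparisons share their wild-type libraries, so a low or high wild-type library enters both. Without wild type replicate 1, 7 members were called in n3315 (against 10.3% of all genes then tested) and 6 in circ-crh-1(syb385) (against 2.89%), all of them lower. At a log2 fold change of at least 2 in size, 5 were called lower in n3315 (against 3.37% of all tested genes) and 5 in circ-crh-1(syb385) (against 1.03%). With the 2-fold threshold inside the test, 2 were called lower in n3315 (against 3.42% of all tested genes) and 3 in circ-crh-1(syb385) (against 0.600%).

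The filter bears on these counts, because a weak gene can pass it through the genotype in which it is highest. For 8 members (pals-14, pals-26, pals-31, pals-33, pals-39, chil-6, chil-18 and chil-23) the level the filter asks for was reached by all 4 libraries in wild type alone. The filter asks for 4 libraries of any genotype. Of these 8, pals-33, pals-39 and chil-23 reached the level in enough mutant libraries to pass without wild type. Outside the 8, the called pals-15 and pals-37 passed only with their wild-type libraries counted, as did some members that were not called. The 16 members that reached the level in all 12 libraries included 4 of the called falls in n3315 (chil-22, chil-13, pals-18 and pals-34) and 2 in circ-crh-1(syb385) (chil-22 and pals-24). The share over all genes that reached it in all 12 libraries was not computed, so whether these counts exceed it is not known here. Without a filter, all 63 members with a count could be fitted, 12 were called lower in n3315 (against 6.92% of all 23365 genes fitted) and 8 in circ-crh-1(syb385) (against 2.82%), and the added one in each was the pseudogene chil-28. The median over these 63 was -0.63 in n3315 and -0.78 in circ-crh-1(syb385).

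**Figure D2:**
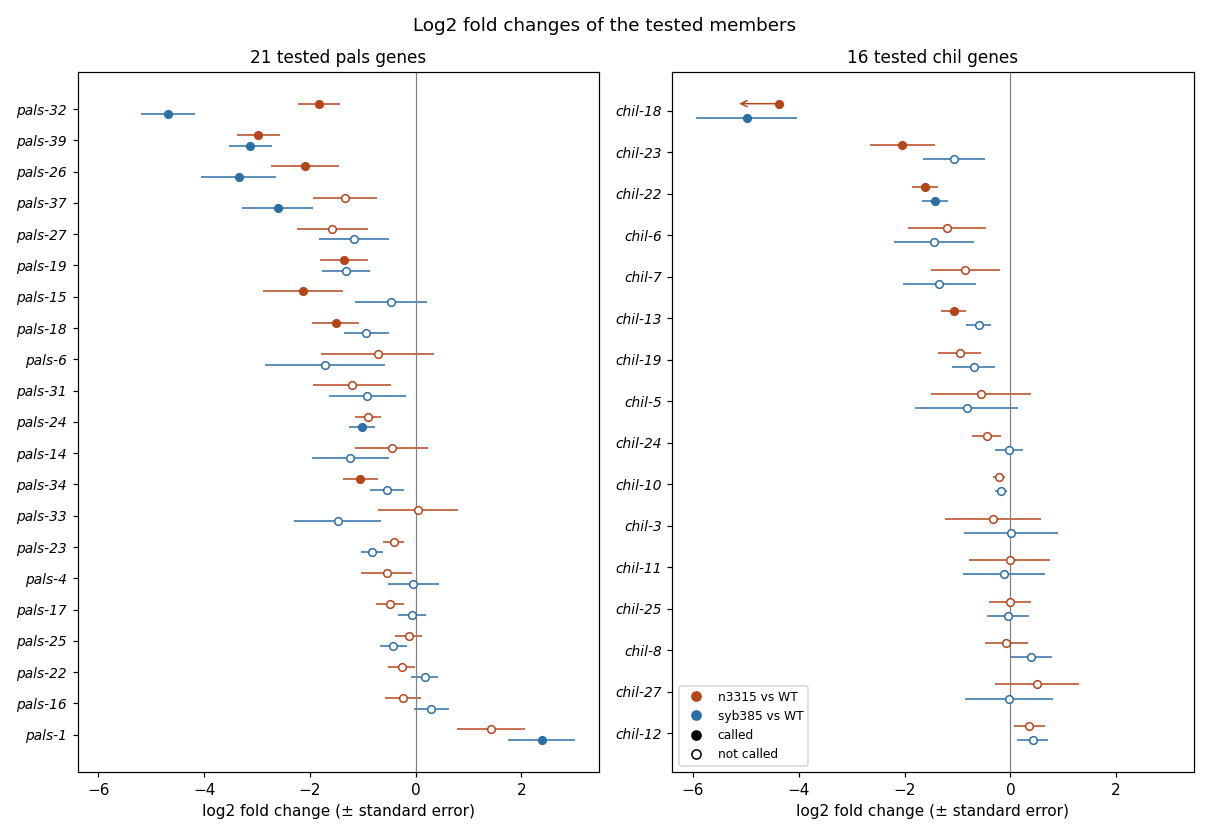
Log2 fold change against wild type (horizontal axes, with standard error) of the 21 tested pals and 16 tested chil genes, crh-1(n3315) drawn above circ-crh-1(syb385) for each gene. Filled points were called and open points were not. The arrow marks chil-18 in crh-1(n3315), drawn at its bound of 20.9-fold. Most points lie left of 0, and pals-1 is the called point on the right.

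The members that were lower in both mutants were pals-32, pals-39, pals-26, chil-18 and chil-22, on chromosomes II, III and V. No specific role is known here for these pals genes beyond their family. The gene pals-39 (WBGene00008301) lies on chromosome V from 12441665 to 12443835. It had 15, 5, 14 and 25 counts in the n3315 libraries, 16, 12, 5 and 16 in circ-crh-1(syb385) and 116, 98, 109 and 145 in wild type. No mutant library came near the wild-type range, and wild type varied little between replicates. As CPM, this is 0.704 ± 0.423 in n3315, 0.629 ± 0.25 in circ-crh-1(syb385) and 5.55 ± 0.672 in wild type (SD, n = 4 each). Against wild type, pals-39 had a log2 fold change of -2.97 in n3315 (standard error, SE, 0.40; adjusted p = 5.14e-05) and -3.13 in circ-crh-1(syb385) (SE 0.41, adjusted p = 0.000153).

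The gene pals-32 (WBGene00016281), alone on chromosome V from 2896637 to 2898417, separated all 3 genotypes. It had 43, 35, 24 and 27 counts in the n3315 libraries, 8, 2, 1 and 5 in circ-crh-1(syb385) and 175, 104, 45 and 139 in wild type. The ranges did not overlap between any pair of genotypes, with n3315 in the middle. Tested against wild type, pals-32 had a log2 fold change of -1.83 in n3315 (SE 0.40, adjusted p = 0.00208) and -4.68 in circ-crh-1(syb385) (SE 0.50, adjusted p = 2.96e-05). Between the mutants, pals-32 was higher in n3315 with a log2 fold change of 2.86 (SE 0.51, adjusted p = 0.00261). This was the only member called between the mutants, against 1.49% of all tested genes called higher and 2.39% called lower in n3315. Of the other members, 1 had an unadjusted p under 0.05, and the median log2 fold change of n3315 against circ-crh-1(syb385) was -0.06 (all tested genes -0.02). A difference that was not called is not shown to be absent.

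The gene pals-26 (WBGene00007131; chromosome III, 4376503 to 4379200) had 9, 5, 8 and 17 counts in n3315, 0, 2, 8 and 5 in circ-crh-1(syb385) and 80, 22, 24 and 44 in wild type. All wild-type libraries were higher than all mutant libraries, and wild type replicate 1 was the highest. Against wild type, its log2 fold change was -2.10 in n3315 (SE 0.64, adjusted p = 0.0156) and -3.34 in circ-crh-1(syb385) (SE 0.71, adjusted p = 0.00501). Without wild type replicate 1 it was -1.56 in n3315 and no longer called (adjusted p = 0.0807), and without n3315 replicate 2 the call was lost as well (-1.90, adjusted p = 0.0537). Over 293 nt its exons overlap those of srpr-1.1 on the same strand, so reads of the 2 genes there cannot be told apart.

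On chromosome II, from 9448273 to 9449726, chil-18 (WBGene00011161) was without a count in all 4 n3315 libraries, and had 0, 0, 0 and 7 counts in circ-crh-1(syb385) and 111, 75, 15 and 53 in wild type. Its counts were thus almost limited to wild type, where they differed several-fold between replicates. With 3 counts taken as the limit that a count of 0 allows in each library, chil-18 was at least 20.9-fold lower in n3315 (adjusted p = 0.000322). In circ-crh-1(syb385) it was lower by a log2 fold change of -4.98 (SE 0.96, adjusted p = 0.00407). Its exons share 92 nt with R09D1.16 on the opposite strand, and whether the counting used strand was not given in the sources used here.

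The gene chil-22 (WBGene00011166; chromosome II, 9464474 to 9466195), in the same cluster, was the most abundant member called in both mutants. It had 106, 99, 58 and 79 counts in n3315, 87, 73, 94 and 103 in circ-crh-1(syb385) and 365, 277, 184 and 211 in wild type. All wild-type libraries were higher than all mutant libraries, and the mutants overlapped. Its log2 fold change from wild type was -1.61 in n3315 (SE 0.24, adjusted p = 0.000128) and -1.43 in circ-crh-1(syb385) (SE 0.24, adjusted p = 0.00107).

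**Figure D3:**
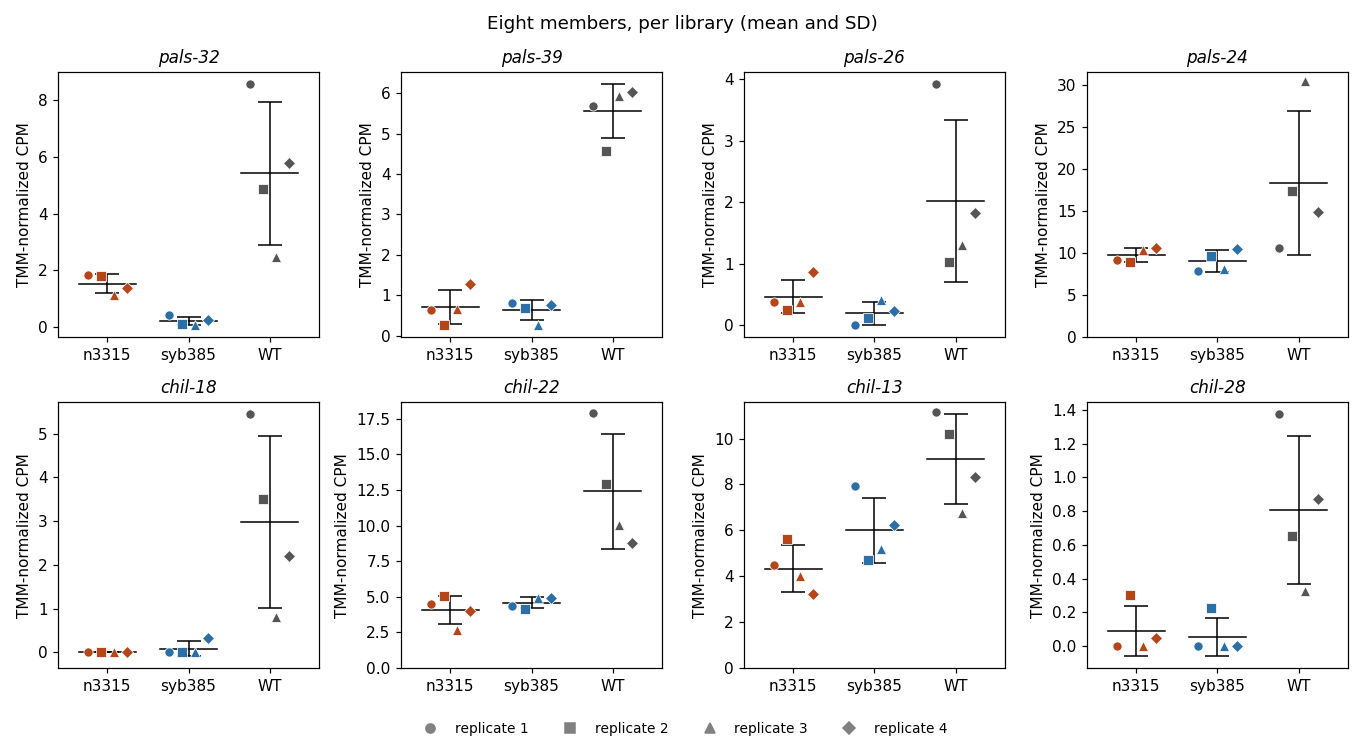
TMM-normalized CPM (vertical axes) of 8 members in every library of crh-1(n3315), circ-crh-1(syb385) and wild type. Marker shapes are replicates and bars are the mean and SD over 4 libraries. The mutant points of pals-39 stay at or below 1.28 CPM while the wild-type points start at 4.57 CPM, and chil-18 is at 0 in all n3315 libraries.

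None of the 4 tested regulators of the IPR was called by edgeR or DESeq2 in the 3 comparisons, and none had an unadjusted p under 0.05 by edgeR, the lowest being 0.0906 for pals-17 in n3315. The repressor pals-22 (WBGene00016216; chromosome III, 132425 to 134405) had 78, 36, 58 and 60 counts in n3315, 87, 59, 60 and 81 in circ-crh-1(syb385) and 87, 52, 60 and 76 in wild type. The ranges of the 3 genotypes overlapped. For pals-22, the change against wild type on the log2 scale was -0.27 in n3315 (SE 0.26) and 0.17 in circ-crh-1(syb385) (SE 0.25), and neither was called. Its antagonist pals-25, the next member on the same strand, had 68, 66, 75 and 70 counts in n3315, 55, 53, 31 and 72 in circ-crh-1(syb385) and 63, 100, 58 and 87 in wild type. These ranges overlapped as well, with log2 fold changes of -0.13 in n3315 (SE 0.26) and -0.42 in circ-crh-1(syb385) (SE 0.26).

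The cluster of pals-22 and pals-25 also holds pals-24 and pals-23, the most abundant pals genes, which lie upstream on the same strand. The gene pals-24 had 218, 175, 224 and 209 counts in n3315, 156, 171, 155 and 220 in circ-crh-1(syb385) and 217, 372, 558 and 357 in wild type. As CPM, wild type replicate 3 was the highest (30.4 CPM) and wild type replicate 1 (10.6 CPM) lay within the range of n3315. The level of pals-24 was 9.80 ± 0.873 CPM in n3315, 9.05 ± 1.27 CPM in circ-crh-1(syb385) and 18.3 ± 8.52 CPM in wild type (SD, n = 4 each). The log2 fold change was -1.01 in circ-crh-1(syb385) (SE 0.25, adjusted p = 0.0119), just past 2-fold. In n3315 it was -0.90 (SE 0.25, adjusted p = 0.00874), short of 2-fold and not called, though without wild type replicate 1 it was -1.10 and called. Without wild type replicate 3 the log2 fold change in circ-crh-1(syb385) was -0.66, short of 2-fold, and it was also short without circ-crh-1(syb385) replicate 1 (-0.95) or 3 (-0.96). For pals-23, the log2 fold change was -0.42 in n3315 (adjusted p = 0.106) and -0.83 in circ-crh-1(syb385) (adjusted p = 0.0117), and neither was called.

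In the other regulatory cluster of chromosome III, the repressor pals-17 had 2.82, 2.35, 2.84 and 3.63 CPM in n3315, 2.67, 4.36, 5.03 and 3.45 CPM in circ-crh-1(syb385) and 3.48, 4.62, 5.45 and 2.83 CPM in wild type. The genotypes overlapped, and the log2 fold change was -0.49 in n3315 (SE 0.27) and -0.08 in circ-crh-1(syb385) (SE 0.27). The activator pals-16 had 1.22, 1.38, 0.977 and 1.48 CPM in n3315, 2.47, 1.53, 1.68 and 1.68 CPM in circ-crh-1(syb385) and 0.931, 1.40, 2.12 and 1.54 CPM in wild type. Its n3315 libraries all lay below those of circ-crh-1(syb385), and wild type overlapped both. The other activator, pals-20, was not tested, with 2, 13, 1 and 1 counts in n3315, 0, 2, 1 and 7 in circ-crh-1(syb385) and 4, 10, 0 and 9 in wild type, and 319 nt of its exons overlap Y82E9BR.5 on the opposite strand.

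The neighbours pals-18 and pals-19, for which no regulatory role is given here, were lower in n3315. There were 22, 36, 19 and 27 counts of pals-18 in n3315, 48, 33, 26 and 38 in circ-crh-1(syb385) and 138, 60, 22 and 86 in wild type. Wild type replicate 1 was the highest and wild type replicate 3 lay within the mutant range. On the log2 scale, the estimate for pals-18 against wild type was -1.52 in n3315 (SE 0.44, adjusted p = 0.0111) and -0.94 in circ-crh-1(syb385) (SE 0.43, adjusted p = 0.149). There were 23, 11, 12 and 15 counts of pals-19 in n3315, 8, 10, 20 and 19 in circ-crh-1(syb385) and 68, 26, 29 and 30 in wild type, all above the mutants. Against wild type, pals-19 had a log2 fold change of -1.35 in n3315 (SE 0.45, adjusted p = 0.0241) and -1.32 in circ-crh-1(syb385) (SE 0.45, adjusted p = 0.058). Both calls in n3315 were lost without wild type replicate 1, where pals-18 was at -1.005 (adjusted p = 0.0535) and pals-19 at -0.91 (adjusted p = 0.133). The call of pals-19 was also lost without n3315 replicate 2 (adjusted p = 0.0724) and without n3315 replicate 3 (adjusted p = 0.0742). In circ-crh-1(syb385), pals-18 was called without wild type replicate 3 (-1.22, adjusted p = 0.0172), and pals-19 was called without wild type replicate 2 (adjusted p = 0.0478) or 3 (adjusted p = 0.0462).

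**Figure D4:**
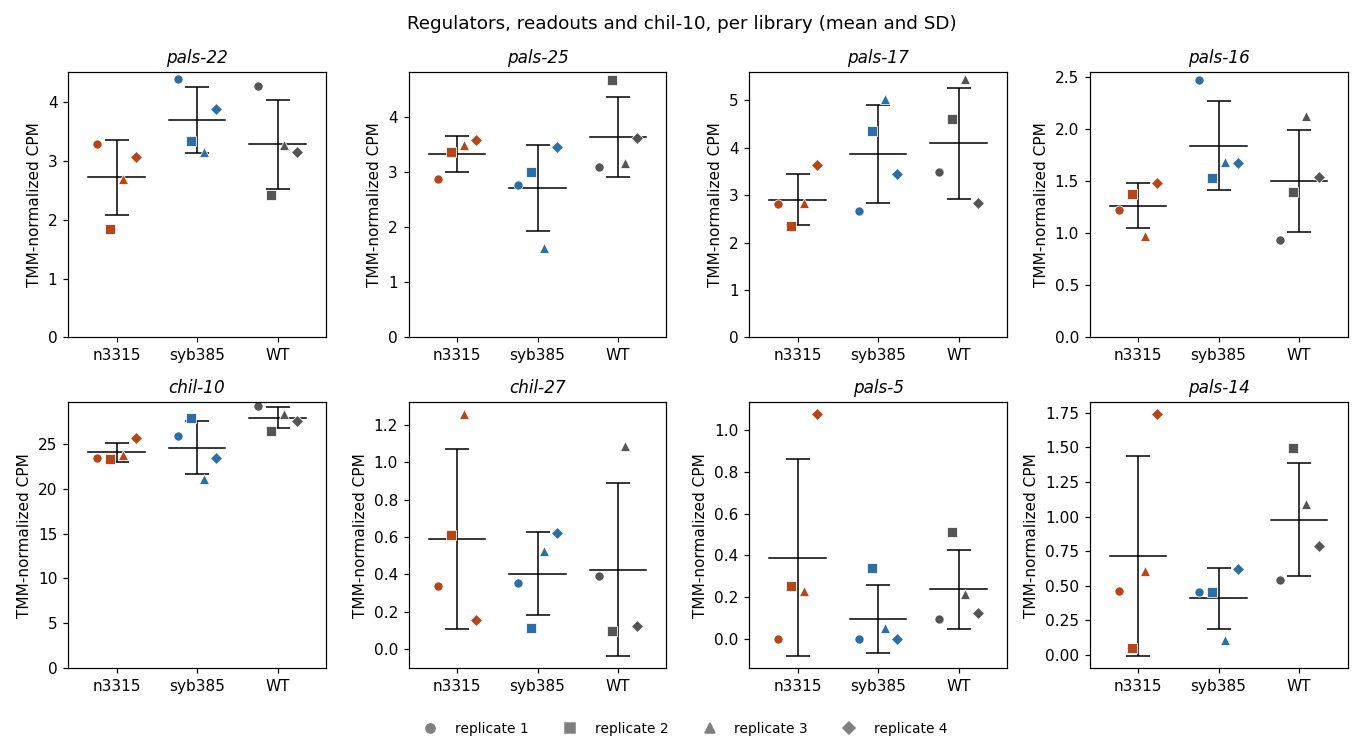
TMM-normalized CPM (vertical axes) of the regulators pals-22, pals-25, pals-17 and pals-16, of chil-10, and of the infection readouts chil-27, pals-5 and pals-14 in every library of crh-1(n3315), circ-crh-1(syb385) and wild type. Marker shapes are replicates and bars are the mean and SD over 4 libraries. The genotypes overlap for pals-22, pals-25 and pals-17, all n3315 points of pals-16 lie below those of circ-crh-1(syb385), and n3315 replicate 4 is the highest point of pals-5 and pals-14.

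Of the genes that mark an active IPR, pals-5 and pals-14 had few counts in all genotypes. The usual reporter gene pals-5 (chromosome I, 13130808 to 13132464) had 0, 5, 5 and 21 counts in n3315, 0, 6, 1 and 0 in circ-crh-1(syb385) and 2, 11, 4 and 3 in wild type, and was not tested. In n3315 most of its counts came from replicate 4. The gene pals-14, also induced in the IPR, had 11, 1, 13 and 34 counts in n3315, 9, 8, 2 and 13 in circ-crh-1(syb385) and 11, 32, 20 and 19 in wild type. Here too n3315 replicate 4 was the highest n3315 library. Tested against wild type, pals-14 had a log2 fold change of -0.46 in n3315 (SE 0.70) and -1.24 in circ-crh-1(syb385) (SE 0.73), and neither was called.

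Chosen after their values were seen, pals-6 (0, 5, 10 and 32 counts in n3315) and pals-33 (14, 7, 19 and 59 counts in n3315) were also highest in replicate 4 among the n3315 libraries. So was eol-1, an IPR gene outside the family, with 0.379, 0.255, 1.35 and 4.04 CPM in the n3315 libraries. Together, pals-5, pals-6, pals-9, pals-14 and pals-15 of the chromosome I cluster had 0.590 to 5.26 CPM in n3315, 1.05 to 2.54 CPM in circ-crh-1(syb385) and 0.882 to 5.97 CPM in wild type. The genotypes overlapped widely, with spread between replicates as large as their means in n3315. Of the 14 genes of that cluster 4 were tested, and edgeR and DESeq2 each called 1 in n3315 and 0 in circ-crh-1(syb385), where 0 had an unadjusted p under 0.05. Of all tested genes, edgeR called 11.2% lower in n3315 and 4.48% in circ-crh-1(syb385). With 4 genes tested, the counts do not set this cluster apart from those shares. The called gene was pals-15, with 3, 1, 3 and 8 counts in n3315, 10, 7, 8 and 21 in circ-crh-1(syb385) and 2, 29, 19 and 18 in wild type. Wild type replicate 1 lay within the n3315 range, and the other wild-type libraries were above it. For pals-15, the change against wild type on the log2 scale was -2.13 in n3315 (SE 0.75, adjusted p = 0.0319) and -0.46 in circ-crh-1(syb385) (adjusted p = 0.700). The call was lost in 6 of 12 fits that each left out 1 library, namely without wild type replicate 2, 3 or 4 and without n3315 replicate 1, 2 or 3, with adjusted p up to 0.0950.

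Of the chil genes that respond to oomycetes, chil-27 was at a low level in every genotype. It had 8, 12, 27 and 3 counts in n3315, 7, 2, 10 and 13 in circ-crh-1(syb385) and 8, 2, 20 and 3 in wild type. The ranges overlapped, with log2 fold changes of 0.50 in n3315 (SE 0.79) and -0.03 in circ-crh-1(syb385) (SE 0.83). Its exons share 105 nt with T19H5.7 on the opposite strand. The annotated pseudogene chil-28 (chromosome II, 12475338 to 12478926) had 0, 6, 0 and 1 counts in n3315, 0, 4, 0 and 0 in circ-crh-1(syb385) and 28, 14, 6 and 21 in wild type. It did not pass the filter. Fitted without the filter, its log2 fold change was -3.10 in n3315 (adjusted p = 0.0366) and -3.73 in circ-crh-1(syb385) (adjusted p = 0.0368).

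The most abundant chitinase-like gene, chil-10, differed little. It had 23.4, 23.4, 23.8 and 25.7 CPM in n3315, 26, 27.9, 21.1 and 23.5 CPM in circ-crh-1(syb385) and 29.3, 26.5, 28.4 and 27.6 CPM in wild type. All n3315 libraries lay below wild type, and circ-crh-1(syb385) overlapped it. On the log2 scale, the estimate for chil-10 against wild type was -0.22 in n3315 (SE 0.11, adjusted p = 0.142) and -0.18 in circ-crh-1(syb385) (SE 0.11, adjusted p = 0.299).

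The larger chil cluster of chromosome II held all the called chil genes. Of its 13 genes 7 were tested, and 4 were called lower in n3315 (against 11.2% of all tested genes) and 2 in circ-crh-1(syb385) (against 4.48%). Beside chil-18 and chil-22, the called genes were chil-13 and chil-23. There were 107, 110, 86 and 63 counts of chil-13 in n3315, 157, 83, 99 and 130 in circ-crh-1(syb385) and 228, 219, 124 and 200 in wild type. The n3315 libraries lay below all wild-type libraries in CPM, while circ-crh-1(syb385) replicate 1 reached into the wild-type range. Against wild type, chil-13 had a log2 fold change of -1.07 in n3315 (SE 0.23, adjusted p = 0.00196) and -0.60 in circ-crh-1(syb385) (SE 0.23, adjusted p = 0.0899). Its call in n3315 fell just short of 2-fold without wild type replicate 1 or n3315 replicate 4, at -0.95 each.

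There were 6, 12, 20 and 1 counts of chil-23 in n3315, 17, 5, 20 and 30 in circ-crh-1(syb385) and 50, 21, 33 and 59 in wild type. Wild type was the highest genotype, and n3315 replicate 4 had almost none. Tested against wild type, chil-23 had a log2 fold change of -2.04 in n3315 (SE 0.62, adjusted p = 0.0155) and -1.07 in circ-crh-1(syb385) (SE 0.59, adjusted p = 0.242). The call in n3315 was lost without n3315 replicate 1 (adjusted p = 0.0514). In the second chil cluster of chromosome II, 5 of 9 genes were tested and 0 were called in either mutant by edgeR or DESeq2. Of all tested genes, edgeR called 11.2% lower in n3315 and 4.48% in circ-crh-1(syb385). With 5 genes tested, 0 does not set this cluster apart from those shares. None of the 5 had an unadjusted p under 0.05, with log2 fold changes from -1.21 to -0.08 in n3315 and from -1.44 to 0.38 in circ-crh-1(syb385).

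Among the remaining pals genes, pals-1 was the member with the opposite direction. It lies alone on chromosome I from 11579857 to 11581986 and had 15, 15, 11 and 18 counts in n3315, 53, 7, 23 and 25 in circ-crh-1(syb385) and 2, 2, 7 and 11 in wild type. All n3315 libraries were above all wild-type libraries in CPM, while circ-crh-1(syb385) replicate 2 lay within the wild-type range. For pals-1, the change against wild type on the log2 scale was 1.43 in n3315 (SE 0.64, adjusted p = 0.0871) and 2.38 in circ-crh-1(syb385) (SE 0.63, adjusted p = 0.0182). The call in circ-crh-1(syb385) was lost without wild type replicate 1 (2.12, adjusted p = 0.0535) or circ-crh-1(syb385) replicate 1 (1.84, adjusted p = 0.0826).

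Next to pals-39 on chromosome V, pals-37 had 7, 8, 11 and 4 counts in n3315, 4, 4, 2 and 1 in circ-crh-1(syb385) and 28, 21, 4 and 25 in wild type. Wild type replicate 3 was as low as the mutants. On the log2 scale, the estimate for pals-37 against wild type was -1.34 in n3315 (SE 0.60, adjusted p = 0.0874) and -2.61 in circ-crh-1(syb385) (SE 0.67, adjusted p = 0.0151). The call was lost without wild type replicate 1 (adjusted p = 0.0514) or circ-crh-1(syb385) replicate 4 (adjusted p = 0.0568). In n3315, pals-37 was called without wild type replicate 3 (-1.65, adjusted p = 0.0309). Over 925 nt its exons overlap anr-30 on the opposite strand. On the same chromosome, pals-34 had 45, 26, 42 and 36 counts in n3315, 36, 48, 61 and 47 in circ-crh-1(syb385) and 81, 114, 30 and 86 in wild type. Wild type replicate 3 lay within the mutant range for pals-34 as well. Against wild type, pals-34 had a log2 fold change of -1.05 in n3315 (SE 0.33, adjusted p = 0.0187) and -0.54 in circ-crh-1(syb385) (SE 0.33, adjusted p = 0.285). The call in n3315 was lost without wild type replicate 1, wild type replicate 2 or n3315 replicate 2.

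The 29 members that were not tested together had 254 counts in n3315, 256 in circ-crh-1(syb385) and 459 in wild type. A mutant had the most counts for 10 of them and wild type for 16, and 3 had none. Chosen after its values were seen, chil-26 went the other way, with 9, 2, 7 and 4 counts in n3315, 18, 2, 5 and 12 in circ-crh-1(syb385) and 0, 0, 0 and 6 in wild type.

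The other genes of these responses were read from lists of names. Of 19 IPR genes outside the pals family, which encode ubiquitin ligase components among others, 16 were found and 9 tested. In n3315, 2 were lower (against 11.2% of all tested genes), skr-5 and sdz-6. The gene skr-5, which encodes a Skp1-related ubiquitin ligase component, had 0, 3, 3 and 2 counts in n3315, against 36, 21, 10 and 25 in wild type. These are too few in n3315 for a fold (adjusted p = 0.0054). For sdz-6 (-2.02, adjusted p = 0.0416), there were 3, 2, 2 and 7 counts in n3315 and 8, 25, 4 and 24 in wild type, and the libraries overlapped. In circ-crh-1(syb385), 1 was lower (against 4.48% of all tested genes), the F-box gene fbxa-158 (-3.32, adjusted p = 0.0186). It had 0, 0, 1 and 5 counts in circ-crh-1(syb385) and 19, 3, 17 and 30 in wild type, so its fold rests on few counts and the libraries overlapped. The median log2 fold change of these 9 genes was -0.98 in n3315 (all tested genes -0.04) and -0.59 in circ-crh-1(syb385) (all tested genes -0.05). The cullin gene cul-6 was short of 2-fold, at -0.98 in n3315 and -0.55 in circ-crh-1(syb385). Also short of 2-fold, skr-3 was at -0.83 in n3315 (adjusted p = 0.00166) and -0.41 in circ-crh-1(syb385) (adjusted p = 0.126). For skr-4, the values were -0.67 in n3315 (adjusted p = 0.00601) and -0.75 in circ-crh-1(syb385) (adjusted p = 0.00888). Of 10 regulators of the IPR and of RNA sensing, all were tested, and 1 was lower in n3315 (against 11.2% of all tested genes). In circ-crh-1(syb385), 0 were called by edgeR or DESeq2, while 3 had an unadjusted p under 0.05, 1 of them higher. The gene called was sta-1, which encodes a STAT protein (log2 fold change -1.01 in n3315, adjusted p = 0.001). In n3315, 8 of the 10 had an unadjusted p under 0.05, 6 of them higher. Short of 2-fold, drh-1 (log2 fold change 0.52, adjusted p = 0.000764), rde-1 (0.70, adjusted p = 0.00101), rde-4 (0.62, adjusted p = 0.000251) and lin-35 (0.52, adjusted p = 0.00234) were above wild type in all n3315 libraries. Also short of 2-fold, zip-1 lay below wild type in all libraries of both mutants. Its log2 fold change was -0.42 in n3315 (adjusted p = 0.0282) and -0.68 in circ-crh-1(syb385) (adjusted p = 0.0056). In circ-crh-1(syb385), sta-1 was at -0.76 (adjusted p = 0.016). The 10 together had 867 to 926 CPM in n3315, 690 to 735 CPM in circ-crh-1(syb385) and 596 to 775 CPM in wild type, with a median log2 fold change of 0.27 in n3315 and 0.04 in circ-crh-1(syb385).

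Of 4 genes of the oomycete response, 3 were tested, and daf-21 was not found under that symbol. The receptor tyrosine kinase gene old-1 and flor-1 were not called in either mutant, and sta-1 was the third. In n3315, flor-1 was short of 2-fold (log2 fold change -0.68, adjusted p = 0.0248). Of 7 genes of chitin metabolism, 2 chitinase genes were lower in n3315 (against 11.2% of all tested genes), cht-2 (-1.26, adjusted p = 0.0255) and cht-4 (-1.70, adjusted p = 0.002). The chitin synthase gene chs-1 was higher in n3315 (log2 fold change 1.32), with 625, 671, 639 and 468 CPM in n3315, 339, 341, 324 and 355 CPM in circ-crh-1(syb385) and 248, 304, 152 and 256 CPM in wild type. None of these 7 was called in circ-crh-1(syb385) by edgeR, where chs-1 was at 0.50. At an unadjusted p under 0.05, 6 of the 7 differed in circ-crh-1(syb385), 1 of them higher, and DESeq2 called 1, which was lower. In n3315, 7 of the 7 differed, 1 of them higher. Short of 2-fold, hex-1 lay below wild type in all libraries of both mutants. It was at -0.86 in n3315 (adjusted p = 0.0015) and -0.88 in circ-crh-1(syb385) (adjusted p = 0.00406). The other chitin synthase gene, chs-2, was at -1.05 in n3315 (adjusted p = 0.0551) and -1.20 in circ-crh-1(syb385) (adjusted p = 0.0668).

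Markers of the tissues in which these genes are known to be induced also differed between genotypes, and their part in the results was not tested. The 7 epidermis markers summed to 1478 to 1883 CPM in n3315, 1555 to 1782 CPM in circ-crh-1(syb385) and 585 to 1144 CPM in wild type. Most of this was the collagen gene col-19, and the other 6 summed to 146 to 175 CPM in n3315, 168 to 190 CPM in circ-crh-1(syb385) and 171 to 273 CPM in wild type. In n3315, 2 of the 7 were higher (col-19 and rol-6) and 2 lower (dpy-7 and che-14), and in circ-crh-1(syb385) 1 was higher (col-19). Of all tested genes, 4.17% were called higher and 11.2% lower in n3315, and 2.24% were called higher in circ-crh-1(syb385). The 7 intestine markers summed to 786 to 955 CPM in n3315, 853 to 1153 CPM in circ-crh-1(syb385) and 355 to 666 CPM in wild type, and act-5 and pept-1 were higher in both mutants. Not all moved this way, since ges-1 and elt-7 lay below wild type in all libraries of both mutants, short of 2-fold. Against wild type, the log2 fold change of ges-1 was -0.91 in n3315 (adjusted p = 0.000127) and -0.45 in circ-crh-1(syb385) (adjusted p = 0.0355), and that of elt-7 was -0.78 in n3315 (adjusted p = 0.00321) and -0.33 in circ-crh-1(syb385) (adjusted p = 0.240). At an unadjusted p under 0.05, 7 of the 7 differed in n3315, 4 of them higher, and 5 in circ-crh-1(syb385), 4 of them higher. In bulk RNA, fewer cells of a type and less RNA per cell cannot be told apart.

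The oocyte markers summed to 2390 to 2713 CPM in n3315, 1832 to 2123 CPM in circ-crh-1(syb385) and 1028 to 1522 CPM in wild type. The muscle markers summed to 3550 to 4634 CPM in n3315, 2143 to 3115 CPM in circ-crh-1(syb385) and 983 to 2653 CPM in wild type. The neuron markers summed to 126 to 151 CPM in n3315, 106 to 120 CPM in circ-crh-1(syb385) and 85.6 to 150 CPM in wild type. The early embryo markers (20.6 to 30.8 CPM in n3315, 24.2 to 31.1 CPM in circ-crh-1(syb385) and 16.6 to 34.4 CPM in wild type) and the sperm markers (5.67 to 19.1 CPM in n3315, 6.08 to 15.9 CPM in circ-crh-1(syb385) and 8.17 to 9.79 CPM in wild type) overlapped between genotypes. In n3315, edgeR called 2 of 5 oocyte, 1 of 3 muscle and 1 of 5 tested sperm markers higher (against 4.17% of all tested genes). In circ-crh-1(syb385) it called 0 of these, as did DESeq2, while 5 oocyte, 1 muscle and 1 sperm marker had an unadjusted p under 0.05. Neither tool called a neuron or early embryo marker in either mutant, where at an unadjusted p under 0.05 there were 3 neuron and 0 embryo markers in n3315 and 1 of each in circ-crh-1(syb385).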

How the data were processed

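Poly(A)-selected libraries of whole worms were sequenced from both ends. The authors used STAR v2.7.5a for alignment to WBcel235 and featureCounts v1.5.0 to count reads over the exons of each gene, and deposited raw counts, without normalization, with other columns of gene position and exonic length that the authors took from the annotation. For testing, the authors used DESeq2 v1.26.0. The strand setting, the annotation release and the handling of multiply mapped reads were not given in the sources used here.

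Symbols came from a name table for 63 members, and for 3 pseudogenes (pals-36, chil-20 and chil-28) from RefSeq genes at the same coordinates. The gene pals-21 was not analysed here. In R v4.3.3, edgeR v4.0.16 kept 14511 genes (filterByExpr, minimum count 10, minimum total 15), normalized by TMM and fitted the 12 libraries in 1 model of genotype without other terms, with a prior count of 0.125. P-values were adjusted by Benjamini-Hochberg over all tested genes. The procedure was checked on simulated data. Alternatives were DESeq2 v1.42.0, DESeq2 size factors, other filters and thresholds, a replicate block, and each library left out in turn. SD is over the 4 libraries of a genotype. The p-values of edgeR test a difference between genotypes against the spread between biological replicates. That spread was estimated from all 3 genotypes together, with information shared across genes. The members and lists were chosen with earlier results of these data known. Described singly were up to 10 called members per comparison with the largest change, members with a known role, and the 3 most abundant genes per kb of each family. For other genes it is said that they were picked with their values in view.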

Additional observations from a re-analysis of the deposited data

Results flagged for a closer look

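In 74 sets of 4 libraries (the members described singly in each genotype, where a library had more than 3 counts), 6 held a library far from the other 3. For normally distributed values, chance flags about 1 in 20 such sets. That rate need not hold for sets of few counts with zeros, so the 6 cannot be read against it. They were pals-16 in circ-crh-1(syb385) replicate 1 (2.47 CPM, others 1.53 to 1.68 CPM), pals-20 in n3315 replicate 2 (0.664 CPM, others up to 0.0842 CPM), pals-5 in circ-crh-1(syb385) replicate 2 (0.340 CPM, others up to 0.0524 CPM), chil-28 in n3315 replicate 2 (0.306 CPM, others up to 0.0511 CPM), chil-28 in circ-crh-1(syb385) replicate 2 (0.226 CPM, others at 0) and chil-18 in circ-crh-1(syb385) replicate 4 (0.335 CPM, others at 0). All but pals-16 rest on 4 to 13 counts.

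The effect on pals-32 differed between the mutants. It was 2.86 higher on the log2 scale in n3315 than in circ-crh-1(syb385) by edgeR's quasi-likelihood test (adjusted p = 0.00261), higher in all 4 n3315 libraries than in all 4 circ-crh-1(syb385) libraries.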

How the results depend on the processing

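With the 2-fold threshold inside the test (glmTreat), the called members were 2 in n3315 (11 by the criterion used above), 3 in circ-crh-1(syb385) (8) and 0 between the mutants by edgeR (1, where 2 had an unadjusted p under 0.05 without that threshold and DESeq2 called 1). At a log2 fold change of at least 2 in size, 5 were called in n3315. Leaving out each library in turn gave 7 to 12 called members in n3315, the lowest without wild type replicate 1, 6 to 10 in circ-crh-1(syb385), and 1 between the mutants each time. The replicate numbers did not pair the libraries (correlations of same-numbered libraries from -0.079 to 0.116). With a replicate block, 11 members were called in n3315, 7 in circ-crh-1(syb385) and 1 between the mutants. The calls of pals-32, pals-39, chil-18 and chil-22 in both mutants, and of pals-26 in circ-crh-1(syb385), held in all 12 fits that left out a library. In circ-crh-1(syb385), pals-24 was at -0.998 and just short of 2-fold with DESeq2 and with its size factors, and at -0.94 with the replicate block. In the same mutant, pals-19 was called with DESeq2 (-1.31, adjusted p = 0.0448) and with a filter of 1 CPM in 4 libraries (adjusted p = 0.0477), though not above. No called change of a described member turned its direction under these alternatives. Of 46 estimates that were not called, 9 changed sign under at least 1 of them, among them pals-17 in circ-crh-1(syb385) (0.09 without wild type replicate 3), pals-25 in n3315 (0.02 without wild type replicate 2) and chil-27, at 0.998 in circ-crh-1(syb385) without wild type replicate 3 and -0.17 in n3315 without n3315 replicate 3. Few counts limit most members, and 29 of the 66 were counted too weakly to pass the filter.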
